A study of Mus musculus with 7 samples.

Results

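Polyamines are small positively charged molecules that every animal cell makes from ornithine and methionine and holds within a narrow range. The 9 genes described here build polyamines, take them apart or sense their level: Odc1, Azin1, Oaz1, Oaz2, Amd1, Srm, Sms, Sat1 and Smox. They were picked by symbol from 13047 distinct gene symbols, and each of the 9 had 1 transcript in the table. The values are counts of ribosome footprints, the pieces of mRNA that ribosomes cover. The mouse samples are labelled primary epidermis, wild type (WT) or Pelota knockout (KO), with 2 libraries per genotype. Pelo encodes Pelota, a factor known to free ribosomes that have stalled on mRNA. The series' design text calls the knockout transgenic. The sources used here do not give strain, age, the driver of the deletion or the cells it reached, nor whether replicates came from separate animals. The p-values therefore measure the spread between these libraries, which may be technical. The labels name the tissue epidermis but also call it a primary cell type and speak of grown cells, so fresh tissue and culture cannot be told apart from them. The RNA-seq libraries of the series, 2 from KO and 1 from WT, were not analysed here.

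Ornithine decarboxylase (Odc1) makes putrescine and is the first committed enzyme of the pathway. Amd1 supplies the aminopropyl groups with which spermidine synthase (Srm) and spermine synthase (Sms) extend putrescine, while Sat1 acetylates polyamines for export or breakdown and Smox oxidises spermine back to spermidine. Antizymes (Oaz1 and Oaz2) bind ornithine decarboxylase and send it to the proteasome, and the antizyme inhibitor Azin1, an inactive relative of the enzyme, binds antizyme in its place. Much of this circuit is known to be set during translation: antizyme synthesis needs ribosomes to shift reading frame when polyamines are high, and the Amd1 and Azin1 leaders carry upstream reading frames at which ribosomes slow or stall as polyamines rise.

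The upstream frame of Amd1 is short enough to show whole. In the RefSeq sequence (GRCm38.p6) it starts at base 14 of the transcript and ends at base 34, with 6 codons before the stop. The capitals below mark the frame from its ATG to its stop, for Amd1 and for the related Amd2, both on the minus strand, at chr10:40302150-40302179 and chr10:35711855-35711884.
Amd1: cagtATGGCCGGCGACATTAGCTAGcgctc
Amd2: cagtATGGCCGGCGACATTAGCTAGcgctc
Both loci carry the same frame, and the first transcribed bases that could be aligned were identical at 48 of 48 positions, so footprints on these stretches cannot be told apart by sequence. The frame occurred in 2 of 32851 RefSeq start windows, namely these. Of the 7 members with such a window (Azin1 and Srm had none in the table used), Amd1 was the 1 whose first 50 transcribed bases held a complete short frame, an ATG followed in frame by a stop, which 11.7% of all windows did. These coordinates are of another build than the count table, which uses mm9 annotation.

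Coding footprints totalled 4221675 to 5282276 per library, and the median listed transcript held 90 to 112. Pelo, the targeted gene, held 24 and 21 coding footprints in the KO libraries and 101 and 61 in the WT ones, so it fell but did not disappear (log2 change −1.65, SE 0.245; edgeR quasi-likelihood test, adjusted p = 0.000807). Keratinocyte genes were present in both genotypes, in different amounts. In CPM (coding footprints scaled to library size and by TMM, which sets the typical gene to no change), the summed level of 8 suprabasal genes ran from 57775 to 63956 in KO and from 17161 to 18307 in WT, with 7 higher and 1 not called. That of 7 basal genes ran from 23331 to 26419 in KO and from 14700 to 16419 in WT, with 2 higher, 2 lower and 3 not called. That of 6 wound keratinocyte genes ran from 25873 to 27844 against 5372 to 6599, with all 6 higher, and that of 7 proliferation genes from 1068 to 1183 against 518 to 579, with all 7 higher. The 9 dermal fibroblast genes ran from 43861 to 48190 against 79197 to 123745, with 6 lower and 3 not called, and none of the listed markers of these 5 groups was at 0. In both WT libraries the fibroblast sum was above each keratinocyte sum, so by these markers the samples were not epidermis alone. In KO it was below the suprabasal sum and above the basal and wound sums. Markers of other cell types moved too. The hair shaft and root sheath sum was 7002 and 3101 in KO against 334 and 337 in WT. All 8 tested genes were higher and 7 more in the table were not tested. In such sums a gene too low to be listed in a library counts as 0 there. The melanocyte sum was 366 and 192 against 58.0 and 75.9, with 4 of 6 tested genes higher and 2 lower. The sebaceous sum was 1857 and 2427 against 4911 and 4701, with 7 of 8 lower. Of adipocyte genes 4 of 5 were called lower, of macrophage and Langerhans cell genes 4 of 7 and of T cell genes 2 of 5. None on these lists was called higher. For skeletal muscle 1 of 2 tested genes was lower and none higher. The skeletal muscle sum overlapped between genotypes, at 433 and 457 in KO against 1225 and 423 in WT. The 4 tested endothelial genes were not called. Over all transcripts tested, 39.0% were called and 19.1% were lower, and such small marker counts are read against those shares. These shifts run beside every change below, and their part in the changes was not tested. Fewer cells of a type and less RNA per cell cannot be told apart in such samples. More mRNA and more ribosomes per mRNA cannot be told apart from footprint counts alone, and the RNA-seq libraries were not analysed here.

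Coding footprints on 5 of the 9 polyamine genes rose in the knockout, those on 1 fell, and 3 did not pass the test. Smox rose 6.31-fold, and Amd1 (2.01-fold), Srm (1.94-fold), Sat1 (1.75-fold) and Oaz1 (1.57-fold) rose less. Sms fell, to 0.520 of its WT level, and Odc1, Azin1 and Oaz2 were not called. For comparison, 39.0% of the 10953 transcripts tested were called at an adjusted p of 0.05, 19.9% as higher and 19.1% as lower. The genotypes did not overlap for 8 of the 9 genes, all but Odc1, and for 71.9% of all transcripts tested. The median log2 change was 0.65 over the 9 genes and −0.02 over all transcripts tested. Scaled to library totals alone, 33.2% of calls were higher instead of 51.1% and the median of all transcripts moved by −0.18 on the log2 scale, yet the same 5 rises and 1 fall among the 9 genes passed.

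**Figure D1:**
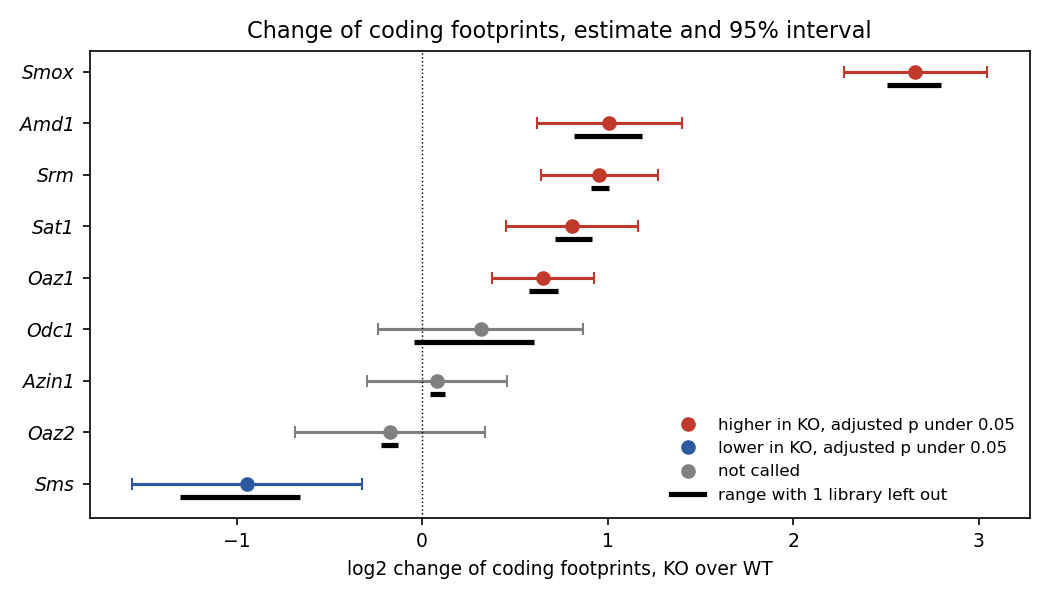
Log2 change of coding footprints (KO over WT, x axis) for each of the 9 polyamine genes (y axis), with the estimate as a point, its 95% interval as a thin bar and the range when 1 library was left out as a black bar. Smox, at 2.66, stands apart from the other 4 rises, at 0.65 to 1.01, and the intervals of Odc1, Azin1 and Oaz2 span 0.

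Odc1, which makes putrescine, had 81 and 49 footprints in the KO libraries and 67 and 51 in the WT ones. Scaled, that is 17.9 and 11.4 CPM in KO against 11.8 and 11.8 in WT, so the genotypes overlapped and KO replicate 1 stood above the other 3 libraries. The log2 change was 0.32 (SE 0.245, 95% interval −0.24 to 0.87, adjusted p = 0.337 by edgeR). It rested on KO replicate 1, without which it stood at −0.045.

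Azin1, the antizyme inhibitor, was nearly level: 90 and 84 footprints in the KO libraries and 109 and 78 in the WT ones, or 19.9 and 19.5 CPM against 19.2 and 18.0. The log2 change was 0.08 (SE 0.167, 95% interval −0.30 to 0.46, adjusted p = 0.741 by edgeR). Both KO libraries lay slightly above both WT libraries. With library totals alone the estimate was −0.10.

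Of the antizymes, Oaz1 rose and Oaz2 was not called. Oaz1, the widely expressed antizyme, had 534 and 565 footprints in the KO libraries and 462 and 334 in the WT ones, or 118 and 131 CPM against 81.3 and 77.1. Both KO libraries lay above both WT libraries (log2 change 0.65, SE 0.122, adjusted p = 0.00280 by edgeR). Oaz2, its close relative, had 36 and 36 against 51 and 41, or 7.94 and 8.37 CPM against 8.97 and 9.46. Both KO libraries were a little lower, but the change did not pass (−0.17, 95% interval −0.69 to 0.34, adjusted p = 0.580), and whether Oaz1 and Oaz2 changed differently was not tested. Antizyme mRNA is read in a pair of overlapping frames, and a count over the whole coding region does not separate ribosomes before the shift from those after it.

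Amd1, which makes decarboxylated S-adenosylmethionine, had 156 and 191 footprints in the KO libraries and 106 and 89 in the WT ones. Scaled, it held 34.4 and 44.4 CPM against 18.6 and 20.5, with no overlap (log2 change 1.01, SE 0.172, adjusted p = 0.00177 by edgeR). Amd2, whose coding region has the same length of 945 nt, had 203 and 233 against 127 and 98 and also rose (1.14, SE 0.152, adjusted p = 0.000442). The sources used here do not say how reads matching both loci were assigned, so the 2 rows may share reads and their split is uncertain; summed, they held 359 and 424 footprints in the KO libraries and 233 and 187 in the WT ones.

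Srm, which makes spermidine, and Sms, which makes spermine, moved in opposite directions. Srm had 195 and 184 footprints in the KO libraries and 130 and 92 in the WT ones, or 43.0 and 42.8 CPM against 22.9 and 21.2. Its replicates were close and the genotypes well apart (log2 change 0.96, SE 0.141, adjusted p = 0.000781 by edgeR). Sms had 33 and 20 footprints in the KO libraries and 60 and 55 in the WT ones, or 7.28 and 4.65 CPM against 10.6 and 12.7. Both KO libraries were lower (log2 change −0.94, SE 0.274, adjusted p = 0.0229 by edgeR). This call was the weakest of the 6: it was lost without KO replicate 2 (−0.66, adjusted p = 0.117), without WT replicate 2 (−0.81, adjusted p = 0.0868), with DESeq2 (−0.94, adjusted p = 0.110) and with unlisted counts set to 0 (−0.95, adjusted p = 0.0596). The other 5 calls passed under each alternative tried.

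Both of the members that take polyamines apart rose, while Paox, a breakdown enzyme outside the 9, was not called (log2 change −0.06). Sat1, the acetyltransferase, had 164 and 142 footprints in the KO libraries and 120 and 79 in the WT ones, or 36.2 and 33.0 CPM against 21.1 and 18.2 (log2 change 0.81, SE 0.157, adjusted p = 0.00344 by edgeR). Smox, the spermine oxidase, had 235 and 208 footprints in the KO libraries and 41 and 38 in the WT ones, or 51.8 and 48.4 CPM against 7.21 and 8.77. The lowest KO value of Smox was several times the highest WT value (log2 change 2.66, SE 0.172, adjusted p = 9.51e-06 by edgeR), and 91 of the 10953 transcripts tested had a larger estimated rise. Leaving out 1 library moved the log2 change of Smox between 2.505 and 2.795. The basal, suprabasal and wound keratinocyte, hair, melanocyte and proliferation sums given above were also higher in both KO libraries. Single genes of the basal and melanocyte lists went both ways. What part these sums had in the rise of Smox was not tested.

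**Figure D2:**
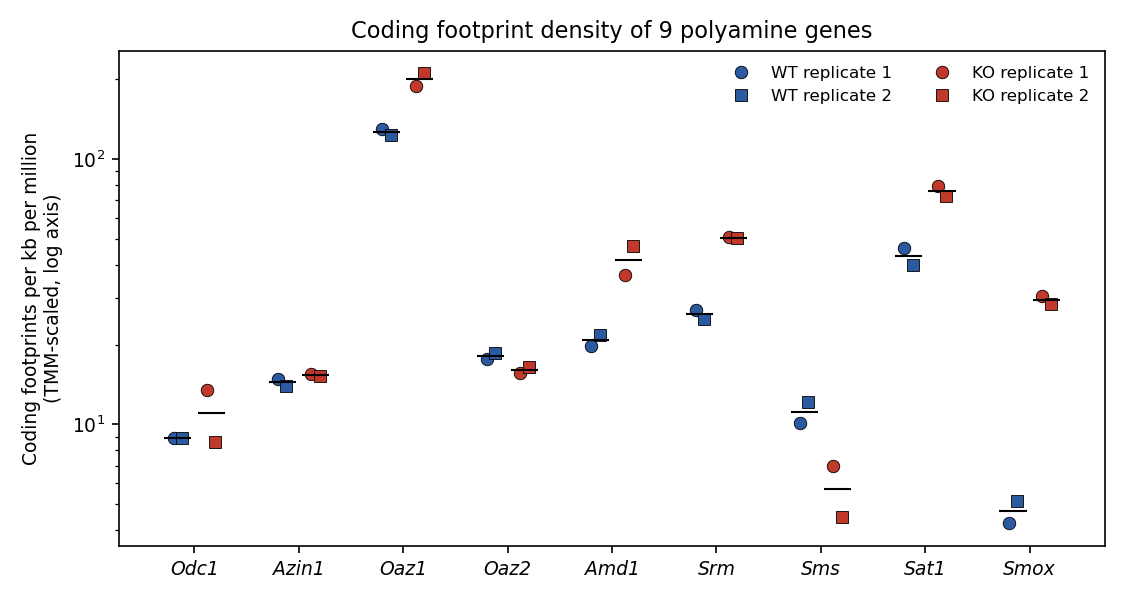
Coding footprint level in CPM per kb of coding region (y axis, log scale, TMM-scaled) for the 9 polyamine genes (x axis) in WT (blue) and KO (red), with circles for replicate 1, squares for replicate 2 and a line at each mean (n = 2 per genotype). Smox moves from the lowest place in WT, at 4.71, to above Oaz2, Azin1, Odc1 and Sms in KO, at 29.5.

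Per kb of coding region, the level of Oaz1 was the highest of the 9 in both genotypes, at 127 ± 4.74 CPM per kb in WT and 199.6 ± 15.3 in KO (mean ± SD, n = 2). Sat1 came next, at 43.1 ± 4.46 and 75.9 ± 4.92, followed by Srm, at 26.0 ± 1.36 and 50.5 ± 0.206. Odc1, the enzyme on which antizyme acts, was near the bottom, at 8.88 ± 0.00798 in WT and 11.0 ± 3.46 in KO. In WT the order went on with Amd1 (20.7), Oaz2 (18.1), Azin1 (14.4), Sms (11.2), Odc1 and Smox (4.71), and the 95% Poisson counting intervals of neighbours from Srm down to Odc1 overlapped. In KO it went on with Amd1 (41.7), Smox (29.5), Oaz2 (15.99), Azin1 (15.3), Odc1 and Sms (5.73), and the intervals of Srm and Amd1 and of Oaz2 and Azin1 overlapped. The intervals hold counting error alone, since no molecular identifiers separate copied reads from independent ones.

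Azin1 carried more footprints per nt in its 5′ UTR than in its coding region, in all 4 libraries. Its 5′ UTR of 584 nt held 56 and 45 footprints in the KO libraries and 62 and 47 in the WT ones, against 90, 84, 109 and 78 over the 1287 nt of coding region. Of 5′ UTR and coding footprints together, the 5′ UTR took 38.4% (95% Wilson interval 30.9 to 46.4) and 34.9% (27.2 to 43.4) in KO and 36.3% (29.4 to 43.7) and 37.6% (29.6 to 46.3) in WT. The genotypes overlapped. Summed over the libraries, its density in the 5′ UTR was 1.28 times that in the coding region, where the median of 1618 transcripts with enough 5′ UTR footprints was 0.272, and 77 of them had a higher ratio.

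Sat1 and Amd1 also carried 5′ UTR footprints, at lower density than in their coding regions. The 235 nt of the Sat1 5′ UTR held 40 and 46 footprints in the KO libraries and 28 and 32 in the WT ones, a share of 19.6% (14.7 to 25.6) and 24.5% (18.9 to 31.1) against 18.9% (13.4 to 26.0) and 28.8% (21.2 to 37.9). WT replicate 2 was the highest and WT replicate 1 the lowest. The 324 nt of the Amd1 5′ UTR, in which the frame printed above is expected by its place in the transcript, held 25 and 20 footprints in the KO libraries and 13 and 5 in the WT ones, a share of 13.8% (9.53 to 19.6) and 9.48% (6.22 to 14.2) against 10.9% (6.496 to 17.8) and 5.32% (2.29 to 11.9). KO replicate 2 fell between the WT libraries. The table does not say where in a 5′ UTR a footprint lay. The other 6 members had few: Odc1, despite a 5′ UTR of 404 nt, held 5 over the 4 libraries, Oaz1 and Smox 9 each, Oaz2 6, Srm 5 and Sms 1.

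**Figure D3:**
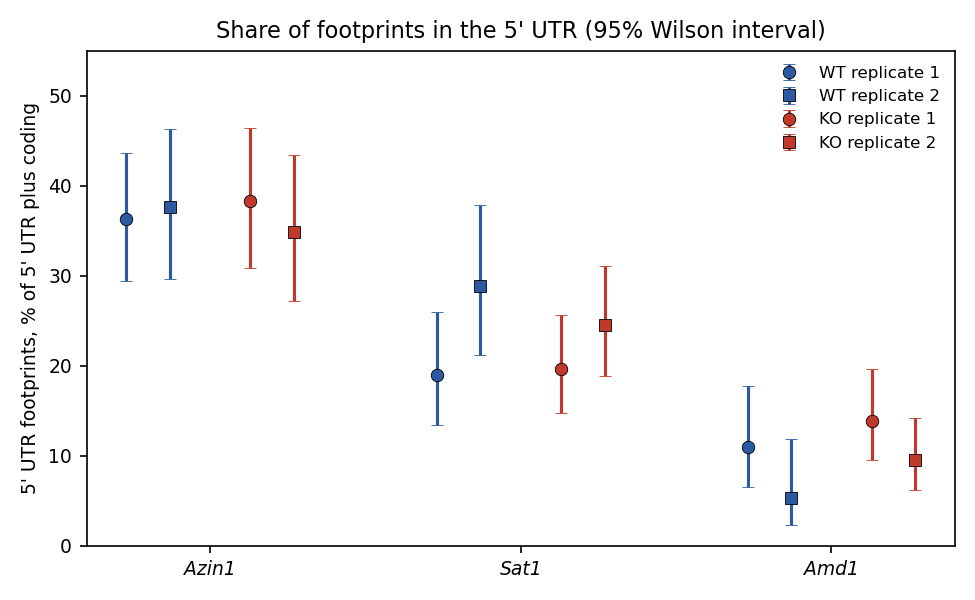
Share of footprints in the 5′ UTR, as a percentage of 5′ UTR plus coding footprints (y axis), for Azin1, Sat1 and Amd1 (x axis) in each WT (blue) and KO (red) library, with 95% Wilson intervals. Azin1 lies between 34.9% and 38.4% in all 4 libraries, above every value of Sat1 and Amd1, and the genotypes overlap for each gene.

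None of these 3 ratios of 5′ UTR to coding footprints passed a test of change. Across all transcripts, 5′ UTR footprints per 100 coding footprints were 1.48 and 1.72 in KO and 1.09 and 0.997 in WT. The exact two-sided permutation p was 0.33, the smallest that 2 against 2 libraries allow. The ratios were tested by edgeR's interaction of genotype and region, with TMM computed per region, which takes out much of that general shift. By this edgeR test the log2 change was −0.62 for Azin1 (SE 0.323, adjusted p = 0.302), −0.73 for Sat1 (SE 0.3501, adjusted p = 0.271) and −0.12 for Amd1 (SE 0.490, adjusted p = 0.939). The median transcript stood at 0.15, so these values are not distances from the typical transcript. The test called 1.42% of 1618 transcripts, or 23. That count was 1 with a replicate block and 2 without WT replicate 2. Without correcting for the general shift, with coding factors for both regions, the values were −0.01, −0.11 and 0.49, where the median transcript stood at 0.76 and 493 transcripts were called, 479 of them higher, with none of the 3 members among them. Under that scaling the Azin1 and Sat1 values were smaller than their SEs of 0.304 and 0.344. A test that a ratio does not pass leaves a change in either direction possible within these errors.

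Footprints in the 3′ UTR were too few to test for any member, while 51 of 223 transcripts with enough, 22.9%, were called. That share was unstable. Under coding factors (75 at an unadjusted p under 0.05) or a replicate block (61 unadjusted) there were 0 edgeR calls. At a limit of 5 counts 86 of 688 transcripts were called, and the count varied widely with the library left out. Among the members Amd1 had the most 3′ UTR footprints, 5 and 10 in KO and 2 and 1 in WT, over 1866 nt. Both KO libraries were higher, but coding footprints rose too; at a lower limit of 5 counts the ratio of 3′ UTR to coding footprints had a log2 change of 1.61 (SE 0.851, adjusted p = 0.200 by edgeR). The other 8 members held 0 to 3 3′ UTR footprints each over the 4 libraries, and Odc1 and Azin1 held 0. Outside the 3 counted regions lie 71 nt of each transcript with all 3 listed, at a place the sources do not describe. Per coding footprint, 7 of the 9 members held more there in both KO libraries than in either WT library, all but Srm and Sms, as did 36.6% of 10690 transcripts, a share in which any transcript with none there counts as not higher. Oaz2, Odc1 and Azin1 are among the 7 on 6 or fewer such footprints per library. Smox held 2 in each WT library, and no test was made.

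Genes that surround the pathway changed in both directions, as did transcripts in general, of which 39.0% were called, 19.9% higher and 19.1% lower. The counts of the lists below are small and are read against those shares. Among genes of arginine and ornithine supply, 10 of 12 listed symbols were tested, with 2 higher, 4 lower and 4 not called. Arg1, arginase, which makes ornithine, had 68 and 36 footprints in the KO libraries and 352 and 225 in the WT ones and fell by 2.28 on the log2 scale (SE 0.229, adjusted p = 7.86e-05 by edgeR). Oat, which converts ornithine to and from glutamate semialdehyde, fell by 0.95, Pycr1, of proline synthesis, by 1.33 and the arginine transporter Slc7a2 by 0.72. For Oat and Slc7a2, values under the alternatives or with a library left out were not examined. Ass1, of arginine synthesis, rose by 1.58 and the main arginine transporter Slc7a1 by 1.13. Arg2, the mitochondrial arginase, stood at 0.09 and was not called.

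In the methionine cycle and the salvage of methylthioadenosine, the by-product of spermidine and spermine synthesis, 3 of 10 tested genes rose, 1 fell and 6 were not called, a share called close to the 39.0% of all transcripts. Ahcy, which clears S-adenosylhomocysteine, had 312 and 292 footprints in the KO libraries and 146 and 120 in the WT ones (log2 change 1.36, SE 0.129). Mtap, which begins the salvage, rose by 1.00 and Mat2a, which makes S-adenosylmethionine, by 0.75, while its regulatory partner Mat2b fell by 0.50. Mtap was not called without WT replicate 1 (0.63), nor Mat2b without KO replicate 1 (−0.48), without WT replicate 1 (−0.42) or with DESeq2 (−0.48). Later salvage enzymes Mri1 (−0.41), Apip (0.07), Enoph1 (−0.05) and Adi1 (−0.39) were not called.

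Spermidine is the source of hypusine, a modified lysine known in the translation factor eIF5A. Eif5a, with 2035 and 1917 footprints in the KO libraries and 1552 and 1025 in the WT ones, rose by 0.81 on the log2 scale (SE 0.118, adjusted p = 0.000718 by edgeR) and Dohh, which completes hypusine, by 0.95. Dhps, which transfers the spermidine part, stood at −0.04 and was not called. Of the 3 tested genes of this list 2 were thus higher, against 19.9% of all transcripts. Of 10 listed genes with a role in polyamine transport or uptake, 5 were tested, with 1 higher, 2 lower and 2 not called, against 19.9% higher and 19.1% lower over all transcripts: the lysosomal polyamine exporter Atp13a2 fell by 0.67 and Cav1 by 0.64, while Gpc1 rose by 0.37. The Gpc1 call was lost without any 1 of the 4 libraries (0.29 to 0.45), with library totals (0.19), with DESeq2 (0.38) and with unlisted counts set to 0 (0.37). Atp13a3 (−0.13) and Slc3a2 (−0.13) were not called. Paox, the oxidase of acetylated polyamines and thus the partner of Sat1, was not called (−0.06, adjusted p = 0.790 by edgeR). It had 123 and 133 footprints in the KO libraries and 168 and 134 in the WT ones. Paox and Amd2 were the 2 tested genes listed as other polyamine enzymes, with 1 of them, Amd2, higher.

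**Figure D4:**
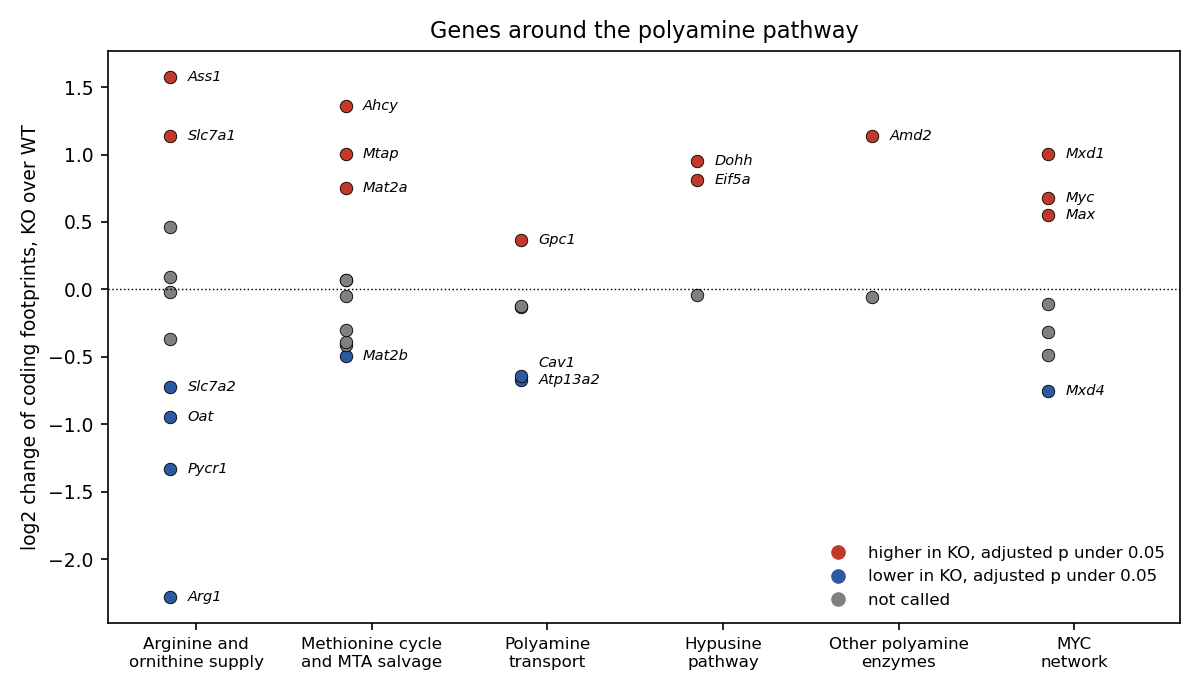
Log2 change of coding footprints (KO over WT, y axis) of the tested genes in 6 lists around the polyamine pathway (x axis), coloured by whether they passed an adjusted p of 0.05; MTA is methylthioadenosine. Calls fall on both sides of 0 in the supply, methionine, transport and MYC lists, with Arg1 the lowest at −2.28 and Ass1 the highest at 1.58.

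MYC is a transcription factor known to activate Odc1 in other settings. Of 7 tested genes of its network, 3 rose, 1 fell and 3 were not called, where 39.0% of all transcripts were called. Myc itself had 265 and 334 footprints in the KO libraries and 242 and 183 in the WT ones (log2 change 0.68, SE 0.155, adjusted p = 0.00760 by edgeR). Its antagonist Mxd1 rose by 1.01, Mxd4, of the same family, fell by 0.75, and its partner Max rose by 0.55, a call lost under each library left out (0.46 to 0.63), with DESeq2 (0.56), with library totals (0.37) and with replicate number as a block (0.55, adjusted p = 0.0519).

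By distance between centred log2 CPM over the 4 libraries, the genes most like Odc1 among 6030 were Gpnmb (0.0326), Clcn7 (0.0776) and Tet2 (0.100), with 1368 genes within 0.5. Those most like Azin1 were Clasp1 (0.0120), Tor1b (0.0160) and Cand1 (0.0247), with 3252 genes within 0.5. With 4 libraries such likeness is common and describes these values alone.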

How the data were processed

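Libraries were rRNA-depleted (RiboZero-Gold), per the labels. Builds mm9 and hg19 and the tools TopHat2 2.0.10, Bowtie2 2.2.6 and CASAVA 1.8 stand in the submitters' processing notes, with no role stated. The authors deposited raw footprint counts per transcript region with mm9 annotation, per the file headers; other columns used give region lengths in nt, as deposited. The read-me describes 1 table as 28 to 34 nt footprints and another as 20 to 22 nt, but both are byte-identical, so the length class is unknown. A transcript is listed only above 0.01 coding footprints per nt; the 9 members were listed in all 4 libraries. The 5′ UTR, coding region and 3′ UTR leave 71 nt uncovered in each of the 12731 transcripts, of 13167, that have all of them listed.

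Of 11019 transcripts listed in all libraries, 10953 had at least 10 coding counts in at least 2. They were tested with edgeR 4.0.16 (R 4.3.3; TMM, quasi-likelihood, two-sided, Benjamini-Hochberg over all transcripts). Intervals of log2 changes are 95%. Region ratios were tested in edgeR by a genotype-by-region interaction, with a library factor and TMM computed per region, at 10 counts in 2 libraries per region. Scripts were tested on simulated data. Libraries were grouped by title. Alternatives were DESeq2 1.42.0, library totals, no count filter, unlisted counts at 0, a replicate block, each library left out and, for ratios, coding factors and a limit of 5 counts. The members and lists were chosen with earlier results of these data known. Named genes were the 9 members, Pelo, up to 4 called genes of each pathway list with the largest change, genes behind small counts, and the 3 nearest to Odc1 and to Azin1; not-called genes of lists were named after their values were seen. RefSeq start windows reach from 250 bases before to 50 after each start.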

Additional observations from a re-analysis of the deposited data

Results flagged for a closer look

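Each transcript with all 3 counted regions listed has 71 nt that fall in none of them, and the tested comparisons above do not use these nt. Per 100 coding footprints, 7 of the 9 members held more there in both KO libraries than in either WT library, as did 36.6% of 10690 transcripts. Over all transcripts the values were 4.65 and 4.65 in KO against 2.66 and 2.51 in WT. Sat1 had 76 and 64 such footprints in KO and 39 and 17 in WT, a mean of 45.7 per 100 coding footprints against 27.01. Its density there was 2.98 and 2.89 times that of its coding region in KO and 2.09 and 1.38 times in WT. Oaz1 had 131 and 111 against 58 and 34, a mean of 22.1 per 100 against 11.4. Amd1 had 15 and 23 against 7 and 3, a mean of 10.8 against 4.99, and Smox 14 and 16 against 2 and 2, a mean of 6.82 against 5.07. The WT values of Smox, and that of Amd1 in WT replicate 2, rest on few footprints. The others rest on few footprints: Oaz2 had 6 and 4 against 5 and 2, a mean of 13.9 against 7.34, Odc1 4 and 4 against 3 and 1, a mean of 6.55 against 3.22, and Azin1 6 and 4 against 2 and 2, a mean of 5.71 against 2.199. Srm, with 3 and 9 against 3 and 4, and Sms, with 3 and 2 against 4 and 5, did not show the pattern. These differences were not tested.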

How the results depend on the processing

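Of the 9 polyamine genes, 5 or 6 were called under each coding alternative, and Sms was the call that was lost. Over all transcripts 4277 were called, 2669 with DESeq2 and 3279 to 3845 with 1 library left out. Not-called genes turned sign: Odc1 without KO replicate 1 (−0.045; 0.60 without KO replicate 2) and Azin1 with library totals (−0.10). The 5′ UTR ratio of Amd1 turned to 0.49 with coding factors for both regions and to 0.0011 with the replicate block, and ran from −0.53 to 0.68 with 1 library left out. Calls of the 5′ UTR ratio over all transcripts were 23, 493 with coding factors, 1 with the replicate block and 2 to 31 with 1 library left out. Those of the 3′ UTR ratio were 51, 0 with coding factors (75 at an unadjusted p under 0.05), 86 at a limit of 5 counts, 0 with the replicate block (61 unadjusted) and 3 to 50 with 1 library left out; the cause was not tested. Replicate numbers are not stated to pair the libraries, and KO and WT replicate differences correlated at −0.005 across genes. With the replicate number as a block, 4337 transcripts and the same number of polyamine genes, 6, were called in coding footprints. Sms, Oaz2 and Odc1 rest on 20 to 81 footprints per library, and Smox on 41 and 38 in WT.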
